A study of Homo sapiens with 12 samples.

Results

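Iron-restored Plasmax was set against EMEM in HepG2 cells, a human liver cancer line, and the comparison is described across all genes measured. It sets against each other 6 of the 12 libraries of the study, the 3 of the medium labelled Plasmax-TE+Fe and the 3 of the medium labelled EMEM. All 12 libraries entered the model from which the tests were made. Counts were read from the raw count table with 1 entry kept per Ensembl identifier. Of 10940 genes in that table, 10459 had enough counts to be tested. Plasmax is a culture medium whose composition was modelled on human plasma. Plasmax-TE is Plasmax made without its trace elements, and Plasmax-TE+Fe is that medium with iron supplied and the other trace elements still left out. EMEM, Eagle's minimal essential medium, is the medium in which the line was maintained.

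All cells were wild type, were seeded in EMEM, were moved to their medium 24 h later, had it refreshed after 48 h and were collected after 96 h. Each medium contained 10% heat-inactivated fetal bovine serum, so every group also received the metals, lipids and hormones that serum carries. Plasmax-TE+Fe differs from EMEM in the whole base medium and not in iron alone, and in this contrast the added iron and the other components cannot be told apart. The Plasmax-TE and Plasmax libraries, 3 each, also enter the estimate of the spread behind each test, and are used for direct tests further on. The labels give replicate numbers but do not say that the libraries came from separate cultures, so a p-value reflects how far these libraries scatter, a scatter that may be technical.

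Liver cells take up transferrin-bound iron, store it in ferritin, secrete transferrin and the iron hormone hepcidin, and let iron govern the stability of the transferrin receptor transcript. They also buffer zinc with metallothioneins, whose genes are switched on by the zinc sensor MTF1, and adjust cholesterol and fatty acid synthesis through the SREBP factors, which act when sterols are low. The arrestin TXNIP follows sugar phosphates through the factors MondoA and ChREBP and restrains glucose uptake. HepG2 cells have all of these circuits, together with the secretion of plasma proteins that defines hepatocytes.

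The 6 libraries held 1605043 to 2384090 counts, so that 1 count stood for 0.419 to 0.623 CPM, the counts scaled to a common library total. Levels below are CPM on library sizes scaled by the TMM method, and differences are log2 fold changes of Plasmax-TE+Fe over EMEM with their standard errors. On the first 2 principal components of all 12 libraries, which held 34.1% and 17.6% of the variance, the EMEM libraries lay at -33.54, -27.25 and -30.95 on the first and the Plasmax-TE+Fe libraries at 13.17, -3.62 and 15.4. On the second, Plasmax-TE+Fe replicate 2 lay at -31.96, against 3.78 and 4.67 for replicates 1 and 3, so this library stood apart from the other 2 of its medium. Plasmax-TE replicate 1 stood apart in the same direction, at -35.49. The amino acid stress gene ASNS, chosen after its values were seen, was at 699.7, 219.5 and 639 CPM in Plasmax-TE+Fe, against 342, 144 and 319.8 CPM in EMEM, lowest in replicate 2 of each medium. Its difference between the media, 0.96 ± 0.39, was not called, at adjusted p = 0.14 by edgeR's quasi-likelihood test. All 15 listed markers of HepG2 and hepatocytes were measured, and 8 of them were called lower and none higher (53.3%, against 9.65% of all genes). Of 35 markers of fibroblasts, endothelium, immune and erythroid cells, 6 were in the table, none of them endothelial or erythroid, and 3 could be tested: PDGFRB was called lower, while ACTA2 and LYZ were not called. The immune markers in the table summed to 1765, 960.7 and 1617 CPM in Plasmax-TE+Fe, against 2179, 2541 and 2480 CPM in EMEM. Only LYZ had enough counts to be tested, so this sum is mostly that of 1 gene, LYZ.

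**Figure D1:**
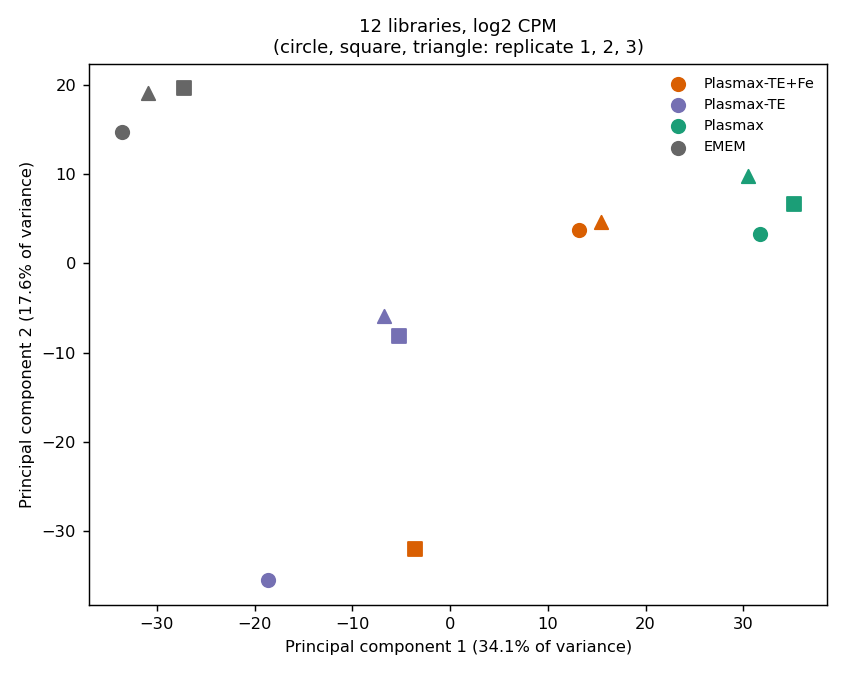
First 2 principal components of log2 CPM for the 12 libraries, 1 point a library, coloured by medium; the axes give each component's score and its share of the variance. The EMEM libraries lie at the left, the Plasmax libraries at the right, and Plasmax-TE+Fe replicate 2 (second component -31.96) lies away from the other 2 libraries of its medium.

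More genes were lower than higher in HepG2 cells in iron-restored Plasmax than in EMEM. The genes that fell included most enzymes of cholesterol synthesis, several metallothioneins, the transferrin receptor and a broad set of secreted plasma proteins. The genes that rose included TXNIP, the acute phase inhibitor SERPINA3 and the cysteine protease inhibitor CSTA. A gene was called when its p-value from edgeR's quasi-likelihood test, adjusted by the Benjamini-Hochberg method over all 10459 genes, was below 0.05. The test called 1009 genes (9.65% of those tested), 384 higher (3.67%) and 625 lower (5.98%), and 397 of them (3.8%) differed by at least 1 on the log2 scale, 145 higher (1.39%) and 252 lower (2.41%). The median log2 fold change over all genes was 0.01, and the median size among called genes was 0.89. For a gene list, the percentage called is the share of its tested members, to be read against the 9.65% of all genes. Of the 1009 called genes, 961 averaged at least 5 CPM and had groups that did not overlap. The share of all tested genes without overlap was not counted. The 15 highest and 15 lowest named changes were picked from these 961 genes. Separate groups were thus a condition of that choice and add nothing to the calls of the genes so picked. Of those named below, these are TXNIP, SERPINA3, CSTA, AREG, MAT2A, SOCS3, TSC22D3, MT1F, MT1G, AGXT, SULT2A1, CA9, PNPLA3, TNS1 and ALDH1L1. For other genes a lack of overlap describes the 3 libraries of each medium and is not a test.

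The split into higher and lower calls moved with the scaling. With library size alone the test called 521 higher and 531 lower, against 384 and 625 with TMM factors. The number of calls also moved with single libraries. It was 651 without Plasmax-TE+Fe replicate 3, 628 without EMEM replicate 1, 666 without EMEM replicate 2 and 606 without EMEM replicate 3. Without Plasmax-TE+Fe replicate 2, the library that stood apart, it was 1145 (10.7% of 10701 genes), 483 higher (4.51%) and 662 lower (6.19%). With Plasmax-TE replicate 1, which shares the model, left out as well, it was 1503. Taking the order of the library numbers as a batch term gave 1569 calls (15%), 665 higher (6.36%) and 904 lower (8.64%). List counts given below under the batch term are to be read against 15% of all genes. Those without replicate 2 are to be read against 10.7%. In all, 408 genes, 119 higher and 289 lower, were called with all libraries and in each of the 6 fits that left one of the compared libraries out. The genes described below by name belong to these 408 unless another count or p-value is given beside them. Because each library holds RNA from a whole well, fewer cells with a transcript and less transcript per cell cannot be told apart.

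**Figure D2:**
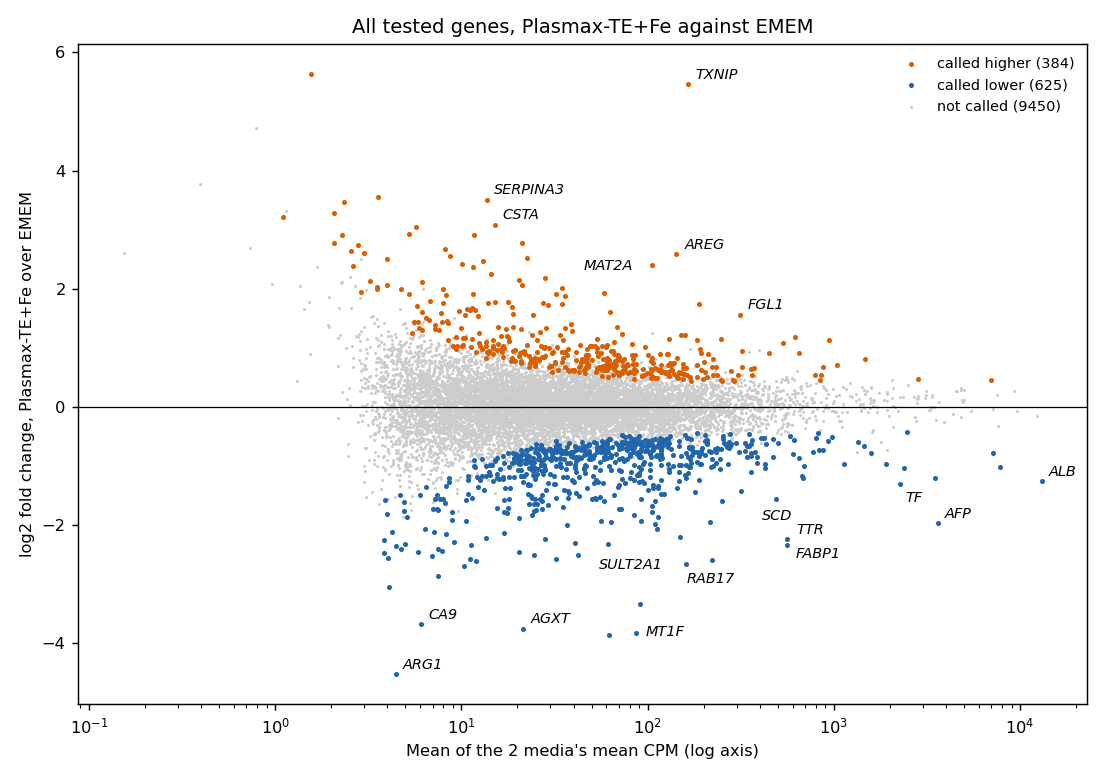
Each point is 1 of the 10459 genes tested; the horizontal axis is the mean of the 2 media's mean levels (CPM, log axis) and the vertical axis the log2 fold change of Plasmax-TE+Fe over EMEM. The 384 genes called higher and the 625 called lower are coloured, and TXNIP, CSTA, SERPINA3 and MT1F lie among the points farthest from 0.

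TXNIP (ENSG00000265972), which binds thioredoxin and lowers glucose uptake, was at 316, 355 and 297 CPM in Plasmax-TE+Fe, against 5.78, 7.67 and 8.03 CPM in EMEM. All 3 iron-restored libraries were above all 3 EMEM libraries, and replicate 2 was the highest of its medium. The log2 fold change was 5.46 ± 0.25, a 44.0-fold higher level, with adjusted p = 2.2e-11 under edgeR's quasi-likelihood test after Benjamini-Hochberg correction. Its close relative ARRDC4 had 41 counts in the 3 Plasmax-TE+Fe libraries together and 3 in the EMEM libraries, a ratio of 13.1 with an exact 95% interval of 4.18 to 66.2 that covers counting error only. KLF10, a transcription factor that also answers to sugar, was at 60.6, 44.7 and 61.8 CPM in Plasmax-TE+Fe, against 16.7, 12.3 and 12.8 CPM in EMEM, and no EMEM library reached a Plasmax-TE+Fe library. Of 12 measured genes of sugar sensing, 3 rose (TXNIP, ARRDC4 and KLF10), 2 fell and 7 were not called (41.7% called), and the list's median was 0.22. The 2 that fell were MLXIPL, the gene for ChREBP itself (log2 fold change -0.95 ± 0.19), and SLC2A3, a glucose transporter gene with a near-identical copy (-1.33 ± 0.28). The adjusted p from the same edgeR test was 0.0029 for ARRDC4, 1.4e-05 for KLF10, 0.0029 for MLXIPL and 0.0039 for SLC2A3.

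The promoters of the pair of arrestins are shown because MondoA and ChREBP are known to act on E-box sequences, and because both genes rose together. The sequences are the 250 bases before the annotated start, 5′ to 3′ on the gene's strand, from RefSeq on build GRCh38.p14. Capitals mark, for TXNIP, the stretch CACGNG followed after any 5 bases by a second CACGNG, the layout of a carbohydrate response element, and for ARRDC4 the single E-box CACGTG, both searched on either strand. The TXNIP window lies at chr1:145996580-145996829 on the minus strand and the ARRDC4 window at chr15:97960453-97960702 on the plus strand.
TXNIP: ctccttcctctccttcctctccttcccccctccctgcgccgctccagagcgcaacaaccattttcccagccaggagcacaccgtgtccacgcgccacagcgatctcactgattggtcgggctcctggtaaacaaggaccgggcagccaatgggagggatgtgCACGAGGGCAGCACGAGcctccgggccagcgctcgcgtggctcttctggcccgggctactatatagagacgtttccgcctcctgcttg
ARRDC4: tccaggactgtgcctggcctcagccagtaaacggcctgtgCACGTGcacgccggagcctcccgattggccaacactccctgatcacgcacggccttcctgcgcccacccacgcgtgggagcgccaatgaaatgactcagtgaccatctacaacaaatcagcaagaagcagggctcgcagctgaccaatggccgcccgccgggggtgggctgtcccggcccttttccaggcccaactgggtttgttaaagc
The TXNIP match began 88 bases before the start; 16 of 35116 promoter windows of the same length (0.0456%) held the motif. TXNIP has 2 windows in the table, and the other one lacked it. The E-box of ARRDC4 began 210 bases before the start, and 6.34% of windows held at least 1. Different motifs were thus marked in the 2 genes. The ARRDC4 window shown lacks the layout marked in TXNIP, and the TXNIP window shown lacks CACGTG. A match describes letters in these windows and is not evidence of binding.

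Most of the measured metallothioneins fell. MT1F (ENSG00000198417), a metallothionein that binds zinc and copper, was at 15.1, 10.3 and 8.46 CPM in Plasmax-TE+Fe, against 152, 131 and 204 CPM in EMEM. MT1G was at 23.2, 12.3 and 12.9 CPM in Plasmax-TE+Fe, against 120.0, 165 and 214 CPM in EMEM. In both genes the lowest EMEM library was several times the highest Plasmax-TE+Fe library. The log2 fold change was -3.83 ± 0.25 for MT1F, a 14.2-fold lower level, and -3.34 ± 0.29 for MT1G. MT1X was at 14.2, 12.3 and 18.4 CPM in Plasmax-TE+Fe, against 33.4, 36.6 and 34.5 CPM in EMEM, without overlap. MT1E was at 509.6, 286 and 447 CPM in Plasmax-TE+Fe, against 723, 964 and 1171 CPM in EMEM, and here too every Plasmax-TE+Fe library was below every EMEM library. Adjusted p from the same edgeR test was 1.1e-08 for MT1F, 3.1e-07 for MT1G, 0.0018 for MT1X and 0.0012 for MT1E. Thus 4 of 6 measured metallothioneins fell (66.7% called), none rose, and the median of the 6 was -1.21. The calls stood with each library left out.

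Not every metallothionein followed. MT2A was at 1897, 1078 and 2117 CPM in Plasmax-TE+Fe, against 1442, 1920 and 1761 CPM in EMEM; the libraries of both media were mixed, with a log2 fold change of -0.01 ± 0.23 and adjusted p = 0.99 by edgeR's test. MT1A was at 20.6, 27.8 and 36.9 CPM in Plasmax-TE+Fe, against 25.7, 36.2 and 30.2 CPM in EMEM, also overlapping. The MT1 genes are near-identical in sequence, so reads could be divided among them in counting, and the values of single members are uncertain. Promoter windows were at hand for MT1X and MT2A, which lie in one cluster and differed in their response. Capitals mark the metal response element core, TGCACNC or TGCGCNC, to which MTF1 is known to bind, searched on either strand. The MT1X window is at chr16:56682220-56682469 and the MT2A window at chr16:56608334-56608583, both on the plus strand of GRCh38.p14, and each ends at the base before the RefSeq start.
MT1X: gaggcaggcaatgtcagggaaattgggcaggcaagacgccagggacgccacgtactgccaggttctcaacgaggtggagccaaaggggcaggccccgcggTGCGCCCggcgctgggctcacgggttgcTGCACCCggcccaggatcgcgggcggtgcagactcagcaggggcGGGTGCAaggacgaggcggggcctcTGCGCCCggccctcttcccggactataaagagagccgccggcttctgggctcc
MT2A: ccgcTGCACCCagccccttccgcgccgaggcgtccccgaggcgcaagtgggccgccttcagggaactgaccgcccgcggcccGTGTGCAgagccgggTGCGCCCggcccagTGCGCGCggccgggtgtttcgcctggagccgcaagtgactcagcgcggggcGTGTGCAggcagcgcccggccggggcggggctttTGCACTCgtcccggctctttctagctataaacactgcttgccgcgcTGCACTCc
The MT1X window held 4 matches, beginning 150, 122, 78 and 53 bases before the start. The MT2A window held 7, beginning 246, 168, 153, 139, 88, 54 and 8 bases before it. At least 1 match was present in 24.8% of the 35116 windows, at least 4 in 0.208% and at least 7 in 0.0228%. The gene that fell therefore had fewer matches than the gene that was not called, which is a description of 2 windows.

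Zinc transporter genes moved in both directions. SLC39A10, a zinc importer of the plasma membrane, was at 23.6, 48.8 and 49.8 CPM in Plasmax-TE+Fe, against 19.2, 17.9 and 11.3 CPM in EMEM, and its lowest Plasmax-TE+Fe library lay just above the highest EMEM library. SLC39A5, another zinc importer, was at 20.2, 16.4 and 23.9 CPM in Plasmax-TE+Fe, against 61.6, 41.7 and 60.9 CPM in EMEM, with no overlap. On the log2 scale the differences were 1.33 ± 0.29 and -1.43 ± 0.26, with adjusted p = 0.0055 for SLC39A10 and 0.0011 for SLC39A5 by edgeR's quasi-likelihood test. Over 16 measured genes of zinc transport and sensing, 2 rose and 2 fell (25% called, against 9.65% of all genes), with a median of 0.06. Only SLC39A10 and SLC39A5 kept the call with each library left out in turn. SLC30A1, the zinc exporter that answers to MTF1, was at 52.5, 52.9 and 57.3 CPM in Plasmax-TE+Fe, against 62.9, 67.7 and 84.6 CPM in EMEM, not called at adjusted p = 0.12. None of 10 copper-handling genes was called, and their median was 0.02.

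Selenoproteins were also divided. Selenium is among the trace elements left out of Plasmax-TE+Fe, but the amount in EMEM was not measured here. GPX1, the cytosolic glutathione peroxidase, was at 69.7, 85.8 and 73.2 CPM in Plasmax-TE+Fe, against 37.9, 30.2 and 43.5 CPM in EMEM. GPX3, the secreted glutathione peroxidase, was at 24.9, 29.3 and 32.9 CPM in Plasmax-TE+Fe, against 68.7, 116 and 76.0 CPM in EMEM. SELENOP, the selenium carrier that hepatocytes secrete, was at 894, 586 and 806 CPM in Plasmax-TE+Fe, against 1416, 1487 and 1587 CPM in EMEM. None of these 3 genes had overlapping groups. In log2 terms the changes were 1.04 ± 0.17 for GPX1, -1.59 ± 0.20 for GPX3 and -0.97 ± 0.19 for SELENOP, with adjusted p of 0.00048, 3.5e-05 and 0.002 in that order by edgeR's test. Of 18 selenoproteins tested, 3 rose and 2 fell (27.8% called), or 4 and 4 with the library numbers as a batch term, and their median was 0.11. GPX1, GPX3 and SELENOP kept the call with each library left out, and GPX2 and TXNRD1, which also rose, did not.

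**Figure D3:**
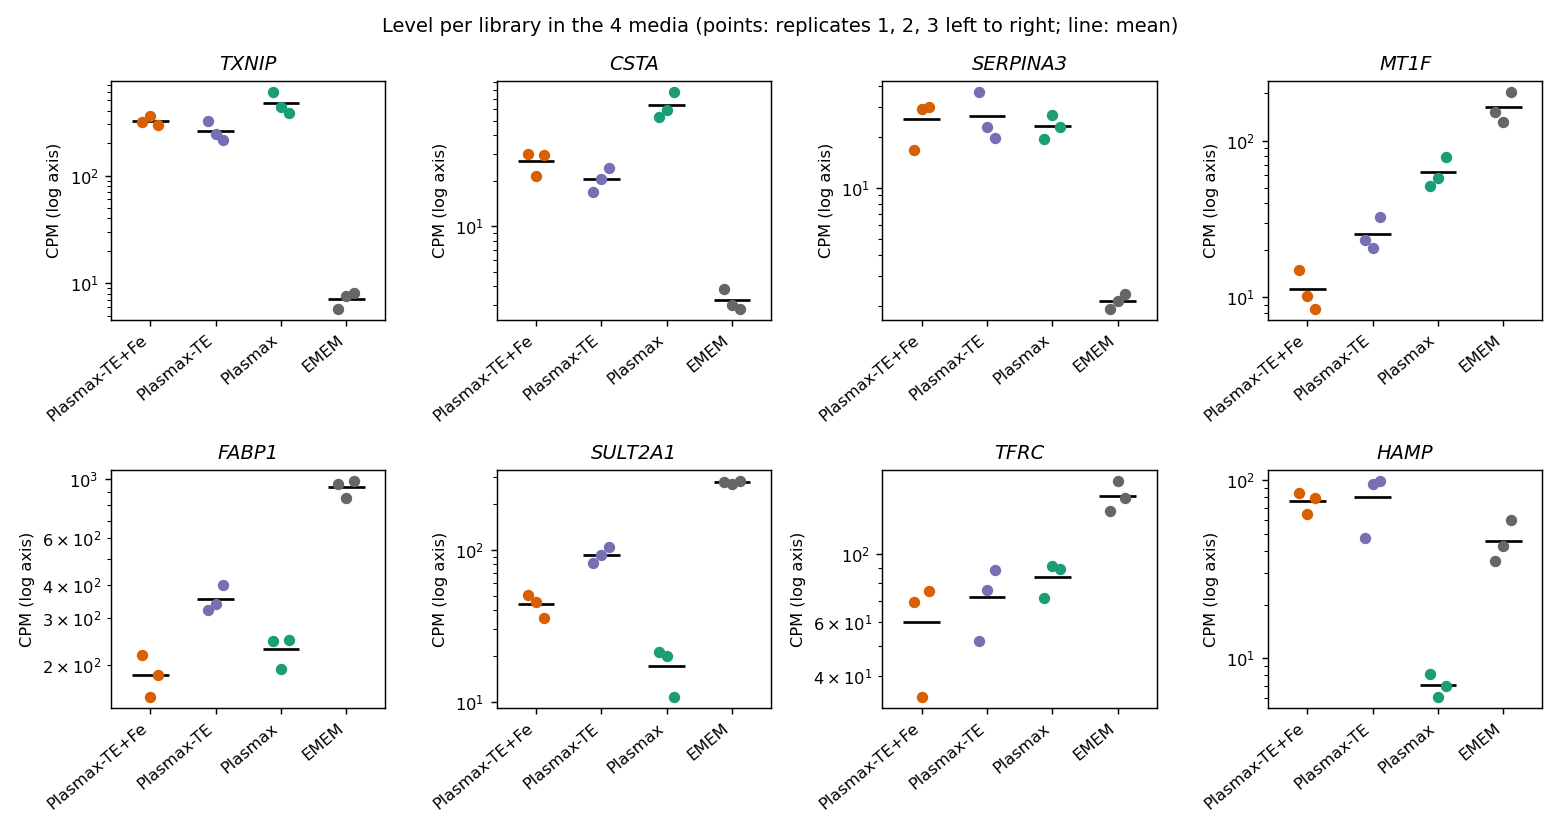
Level of 8 genes (CPM, log axis) in every library of the 4 media, in the order Plasmax-TE+Fe, Plasmax-TE, Plasmax and EMEM; points are libraries, replicates 1 to 3 from the left, and lines are means. TXNIP, CSTA and SERPINA3 lie higher in the Plasmax-TE+Fe libraries than in the EMEM libraries, MT1F, FABP1, SULT2A1 and TFRC lie lower, and HAMP is lowest in Plasmax.

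Among the iron genes, both transferrin receptors and transferrin fell, and the ferritin genes were not called. TFRC (ENSG00000072274), the transferrin receptor, was at 69.7, 33.9 and 75.2 CPM in Plasmax-TE+Fe, against 137, 173 and 152 CPM in EMEM. Its lowest value was in replicate 2, and all 3 Plasmax-TE+Fe libraries were below all EMEM libraries. TF (ENSG00000091513), the plasma iron carrier, was at 1394, 1292 and 1217 CPM in Plasmax-TE+Fe, against 3674, 2727 and 3205 CPM in EMEM, also without overlap. TFR2, the second transferrin receptor, which senses iron for hepcidin control, was at 25.8, 41.6 and 26.9 CPM in Plasmax-TE+Fe, against 93.1, 60.9 and 69.0 CPM in EMEM. The log2 fold changes were -1.37 ± 0.23 for TFRC, -1.30 ± 0.16 for TF and -1.24 ± 0.21 for TFR2. edgeR's quasi-likelihood test gave adjusted p = 0.00059 for TFRC, 2.4e-05 for TF and 0.00078 for TFR2, and without replicate 2 of Plasmax-TE+Fe 0.00068, 6.3e-05 and 0.00011 for the same genes.

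The ferritin genes were not called. FTH1, the heavy chain, was at 686, 592 and 648 CPM in Plasmax-TE+Fe, against 557, 532 and 560.3 CPM in EMEM. FTL, the light chain, was at 4953, 5447 and 4380 CPM in Plasmax-TE+Fe, against 3515, 4343 and 4450 CPM in EMEM. The FTH1 groups did not overlap and the FTL groups did, and the log2 fold changes were 0.22 ± 0.13 and 0.26 ± 0.17. SLC40A1, the iron exporter ferroportin, was at 15.9, 26.7 and 23.4 CPM in Plasmax-TE+Fe, against 27.6, 23.4 and 13.7 CPM in EMEM, and SLC11A2, the importer DMT1, at 63.6, 75.0 and 76.2 CPM in Plasmax-TE+Fe, against 84.1, 85.2 and 72.3 CPM in EMEM; both overlapped. By edgeR's test FTH1 had adjusted p = 0.32 and FTL 0.36, SLC11A2 had 0.57 and SLC40A1 0.96. In all, 6 of 19 measured iron genes fell (31.6% called), none rose, and the median was -0.17. TFRC, TF and TFR2 kept the call with each library left out. The other 3 were SLC39A14, the ferritin receptor for autophagy NCOA4, and the copper ferroxidase CP, with log2 fold changes of -0.80, -0.52 and -0.88. The adjusted p of SLC39A14 was 0.054 without EMEM replicate 3. That of NCOA4 was 0.051 without EMEM replicate 1 and 0.067 without EMEM replicate 3. That of CP was 0.13 without Plasmax-TE+Fe replicate 1, 0.11 without replicate 3, 0.12 without EMEM replicate 1 and 0.089 without EMEM replicate 2.

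HAMP (ENSG00000105697), which encodes hepcidin, was at 85.2, 64.8 and 79.2 CPM in Plasmax-TE+Fe, against 35.3, 42.6 and 59.5 CPM in EMEM. Every Plasmax-TE+Fe library was above every EMEM library, yet the log2 fold change of 0.73 ± 0.24 was not called, at adjusted p = 0.058 by edgeR's test. It was 0.031 without replicate 2 of Plasmax-TE+Fe, 0.039 without replicate 3 of EMEM and 0.0063 with the library numbers as a batch term. FURIN, a protease that processes hepcidin and its regulators, was at 137, 135 and 118 CPM in Plasmax-TE+Fe, against 61.6, 48.1 and 83.6 CPM in EMEM, with a log2 fold change of 1.01 ± 0.21 and adjusted p = 0.0035. Of 18 measured genes of the hepcidin and BMP pathway, 2 rose (FURIN and NEO1) and none fell, with a median of 0.27. These calls made up 11.1% of the list, near the 9.65% called over all genes. With the batch term, which called 15% of all genes, 5 rose and 1 fell. NEO1, a hemojuvelin-binding receptor, had a log2 fold change of 0.92 and lost its call without EMEM replicate 2 (adjusted p = 0.069) or EMEM replicate 3 (0.071).

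With all libraries, 17.6% of one list of genes that use iron and 19.4% of another were called, against 9.65% of all genes. Of 34 genes of heme synthesis, heme breakdown and iron-sulfur assembly, 4 rose and 2 fell, with a median of 0.07, and no one of them kept its call with each library left out in turn. With any 1 library left out, 0 to 2 of these 34 rose and 0 to 1 fell, so the larger share of this list was not held. Of 36 dioxygenases that need iron and 2-oxoglutarate, none rose and 7 fell, with a median of -0.20. P4HA1 and P4HA2, subunits of collagen prolyl hydroxylase, had log2 fold changes of -1.21 ± 0.21 and -0.95 ± 0.20, PLOD1, a collagen lysyl hydroxylase, had -0.71 ± 0.16, and PHYH, which starts the breakdown of phytanic acid, had -1.18 ± 0.23. The adjusted p from edgeR's test was 0.00062 for P4HA1, 0.0032 for P4HA2, 0.0076 for PLOD1 and 0.0022 for PHYH. P4HA1 and P4HA2 are also targets of the hypoxia factor HIF.

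**Figure D4:**
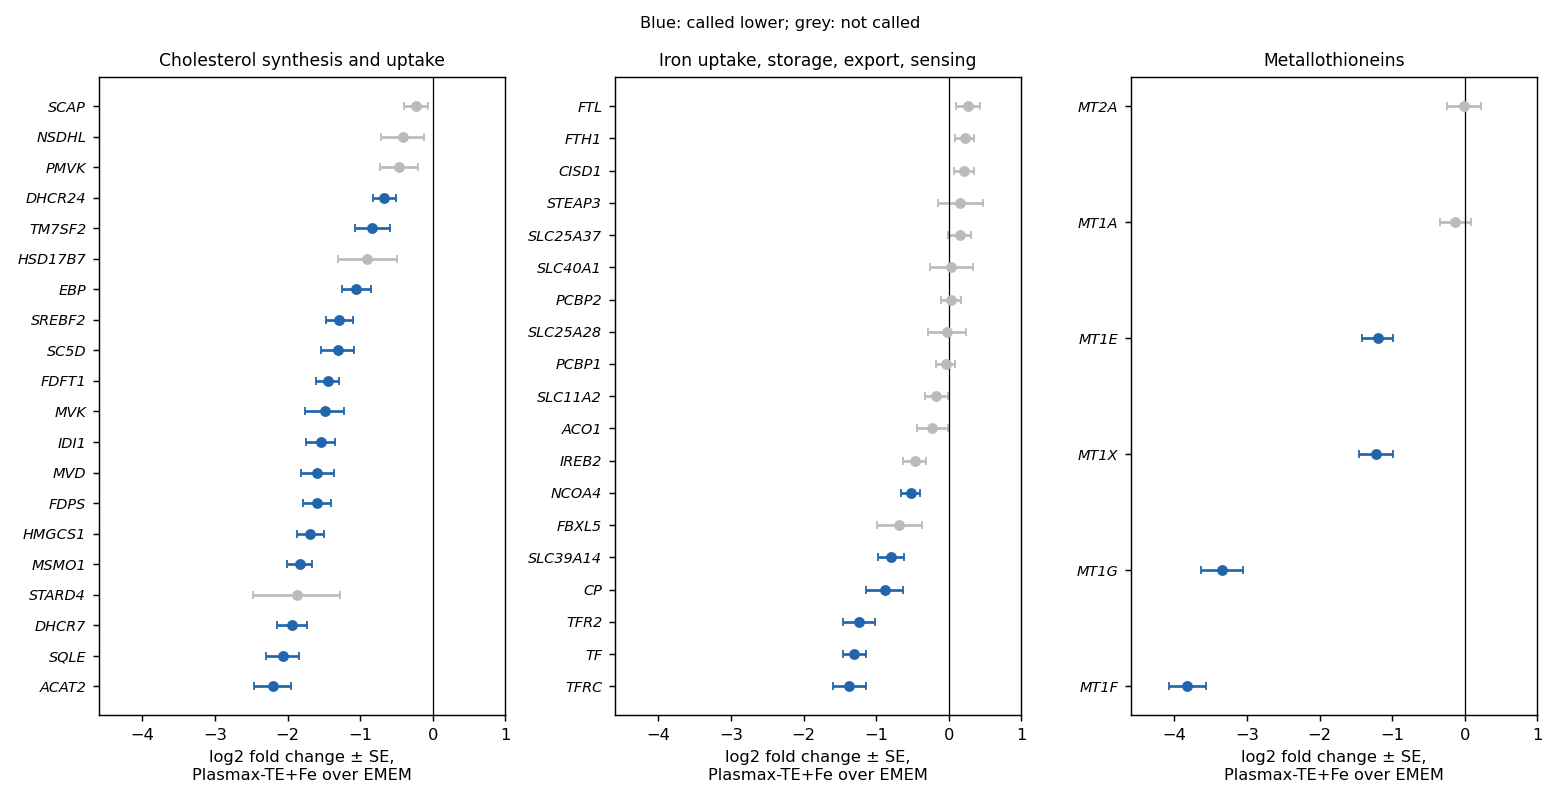
Log2 fold change of Plasmax-TE+Fe over EMEM with its standard error for tested members of 3 lists: cholesterol synthesis and uptake (20 of 23 drawn), iron genes, and metallothioneins; blue points were called lower and grey points were not called. The cholesterol genes drawn and the 6 metallothioneins lie below 0, and 15 and 4 of them were called, while 13 of the 19 iron genes were not called.

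Cholesterol genes formed the most uniform group. HMGCS1 (ENSG00000112972), the synthase that makes HMG-CoA, was at 59.8, 47.8 and 41.8 CPM in Plasmax-TE+Fe, against 165, 169 and 149 CPM in EMEM. DHCR7, which makes cholesterol in the last step of one branch of the pathway, was at 20.2, 28.3 and 21.4 CPM in Plasmax-TE+Fe, against 101, 76.7 and 89.8 CPM in EMEM. SQLE, squalene epoxidase, was at 31.4, 58.6 and 39.8 CPM in Plasmax-TE+Fe, against 176, 190.4 and 174 CPM in EMEM. In each of these genes the highest Plasmax-TE+Fe library was far below the lowest EMEM library. The log2 fold change was -1.69 ± 0.18 for HMGCS1, -1.94 ± 0.21 for DHCR7 and -2.07 ± 0.23 for SQLE, a 4.19-fold lower level. Adjusted p from edgeR's quasi-likelihood test was 4.4e-06 for HMGCS1, 4.1e-06 for DHCR7 and 6.2e-06 for SQLE. Of 23 measured members, 18 fell and none rose (78.3% called), and the median was -1.49 against 0.01 over all genes. Across the early steps, log2 fold changes were -2.20 for ACAT2, -1.49 for MVK, -1.59 for MVD, -1.55 for IDI1, -1.60 for FDPS and -1.45 for FDFT1. Across the late steps they were -1.83 for MSMO1, -1.05 for EBP and -1.31 for SC5D, and SREBF2, which encodes the factor governing the pathway, was at -1.28. Of the 18 genes that fell, 16 kept the call with each library left out in turn.

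Genes of unsaturated fatty acid synthesis were among those that fell. FADS2, the delta-6 desaturase, was at 3.87, 5.14 and 5.48 CPM in Plasmax-TE+Fe, against 21.8, 25.1 and 20.3 CPM in EMEM. FADS1, the delta-5 desaturase, was at 72.2, 67.3 and 70.7 CPM in Plasmax-TE+Fe, against 164, 172 and 161 CPM in EMEM. Neither gene had overlapping groups, and the 3 Plasmax-TE+Fe libraries were close together in both. Their log2 fold changes were -2.21 ± 0.32 for FADS2 and -1.24 ± 0.17 for FADS1, and SCD, which makes monounsaturated fatty acids, had -1.55 ± 0.15. PNPLA3, a lipid droplet enzyme, had 17 counts in Plasmax-TE+Fe and 111 in EMEM over the 3 libraries of each, a log2 fold change of -2.70 ± 0.49. edgeR's test gave an adjusted p of 6.6e-07 for SCD, 7.3e-05 for FADS1, 0.00012 for FADS2 and 0.0011 for PNPLA3. Of 17 measured genes of fatty acid synthesis and desaturation, 8 fell and none rose (47.1% called), or 8 and 1 under the batch term. Their median was -0.54, and 7 kept the call with each library left out.

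Of the genes of fatty acid oxidation, ketogenesis and lipid droplets, 11 fell and 14 were not called (44% called). FABP1, the liver fatty acid binding protein, was at 218, 151 and 183 CPM in Plasmax-TE+Fe, against 958, 851 and 990.1 CPM in EMEM. PLIN2, a coat protein of lipid droplets, was at 548, 287 and 551 CPM in Plasmax-TE+Fe, against 819, 851 and 859 CPM in EMEM, lowest in replicate 2. PPARA, the factor that switches on fatty acid oxidation, was at 25.8, 32.4 and 27.9 CPM in Plasmax-TE+Fe, against 41.1, 66.9 and 52.9 CPM in EMEM. For all 3 genes the groups did not overlap. Differences on the log2 scale came to -2.34 ± 0.16 for FABP1, -0.87 ± 0.18 for PLIN2 and -0.92 ± 0.20 for PPARA, with adjusted p of 1.3e-08, 0.0045 and 0.0044 in that order by edgeR's test. The thiolases ACAA1 and ACAA2 had -0.85 ± 0.16 and -1.10 ± 0.17, and the droplet protein CIDEB -1.27 ± 0.19. None of the 25 measured genes rose, and the median was -0.65; 8 of the 11 kept the call with each library left out.

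Several of the hepatocyte's main secreted proteins fell. ALB (ENSG00000163631), albumin, was at 7880, 8053 and 7068 CPM in Plasmax-TE+Fe, against 17170, 17710 and 20340 CPM in EMEM. AFP, the fetal counterpart of albumin, was at 1550, 1599 and 1255 CPM in Plasmax-TE+Fe, against 5394, 5037 and 6829 CPM in EMEM. TTR, which carries thyroid hormone and retinol binding protein, was at 166, 210.2 and 213 CPM in Plasmax-TE+Fe, against 996, 981 and 808 CPM in EMEM. The groups were fully separate in all 3 genes, with log2 fold changes of -1.26 ± 0.11 for ALB, -1.97 ± 0.14 for AFP and -2.24 ± 0.16 for TTR and adjusted p of 3.3e-07, 2.4e-08 and 1.3e-08 in that order by edgeR's test. Of 20 plasma transport proteins measured, 10 fell and 3 rose (65% called), with a median of -0.56. SERPINA3 and ORM1, which are also acute phase genes, rose and kept the call with each library left out, and the third that rose did not. ORM1 has a near-identical copy, so its value is uncertain.

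Several apolipoprotein genes fell. APOA1, the main protein of HDL, was at 1247, 1446 and 1186 CPM in Plasmax-TE+Fe, against 2788, 2244 and 2527 CPM in EMEM. APOA2 was at 4895, 5735 and 5198 CPM in Plasmax-TE+Fe, against 9721, 9212 and 8323 CPM in EMEM. MTTP, which loads lipid onto nascent lipoproteins, was at 33.1, 39.1 and 22.9 CPM in Plasmax-TE+Fe, against 77.7, 69.0 and 82.2 CPM in EMEM. The log2 fold changes were -0.96 ± 0.16, -0.78 ± 0.12 and -1.26 ± 0.21 for the 3 genes, none of which had overlapping groups, and LCAT, which esterifies cholesterol in HDL, had -1.69 ± 0.21. Adjusted p from edgeR's test was 0.00064 for APOA1, 0.00014 for APOA2, 0.00048 for MTTP and 2.8e-05 for LCAT. Of 18 measured members, 10 fell and none rose (55.6% called), with a median of -0.78, and 13 fell and 1 rose under the batch term. Some members are counted with the cholesterol genes too.

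More genes of coagulation factors and their inhibitors fell than rose, and inhibitors were found in both directions. SERPINE2, an inhibitor of thrombin and urokinase, was at 322, 220.5 and 327 CPM in Plasmax-TE+Fe, against 93.1, 105 and 60.9 CPM in EMEM. SERPING1, the C1 inhibitor, was at 43.0, 87.4 and 40.3 CPM in Plasmax-TE+Fe, against 17.3, 16.6 and 12.3 CPM in EMEM, with its highest value in replicate 2. F10, clotting factor X, was at 57.6, 80.7 and 71.2 CPM in Plasmax-TE+Fe, against 149, 135 and 124 CPM in EMEM, and SERPINA5, the protein C inhibitor, at 423, 427 and 405 CPM in Plasmax-TE+Fe, against 998, 831 and 984 CPM in EMEM. The first pair lay above EMEM and the second pair below it, with no overlap in any of the 4. Log2 fold changes came to 1.75 ± 0.20 for SERPINE2, 1.88 ± 0.34 for SERPING1, -0.96 ± 0.18 for F10 and -1.16 ± 0.16 for SERPINA5. By edgeR's test their adjusted p was 7e-06, 0.0011, 0.0012 and 9.5e-05 in that order. Of 19 measured members, 2 rose and 9 fell (57.9% called), with a median of -0.42.

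Some acute phase genes rose. SERPINA3 (ENSG00000196136), alpha-1-antichymotrypsin, was at 16.8, 29.3 and 29.9 CPM in Plasmax-TE+Fe, against 1.93, 2.13 and 2.36 CPM in EMEM. HP, haptoglobin, was at 48.2, 66.3 and 38.8 CPM in Plasmax-TE+Fe, against 15.4, 12.8 and 12.8 CPM in EMEM. FGL1, a secreted fibrinogen-like protein, was at 460.2, 456 and 485 CPM in Plasmax-TE+Fe, against 183, 150.4 and 143 CPM in EMEM. The EMEM libraries lay below the Plasmax-TE+Fe libraries in each of them, which for SERPINA3 was a condition of its choice. SERPINA3 had a log2 fold change of 3.50 ± 0.38, HP of 1.91 ± 0.32 and FGL1 of 1.56 ± 0.14. SOCS3, which damps cytokine signalling, had 2.46 ± 0.38. The adjusted p by edgeR's quasi-likelihood test was 5.3e-06 for SERPINA3, 0.00048 for HP, 3.4e-07 for FGL1 and 0.00025 for SOCS3. Of 24 measured acute phase, fibrinogen and complement genes, 7 rose and 1 fell (33.3% called), with a median of 0.27. The gene that fell was MASP1, a protease of the lectin pathway of complement, with a log2 fold change of -1.41 ± 0.23. Of the 7 that rose, 5 kept the call with each library left out.

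More genes of steroid, bile acid and drug metabolism fell than rose, and most were not called. SULT2A1 (ENSG00000105398), the sulfotransferase for steroids and bile acids, was at 50.3, 45.2 and 35.9 CPM in Plasmax-TE+Fe, against 276, 271 and 284 CPM in EMEM. HSD11B2, which inactivates cortisol, was at 11.6, 14.4 and 10.5 CPM in Plasmax-TE+Fe, against 35.9, 31.9 and 38.7 CPM in EMEM. CYP27A1, a sterol hydroxylase of bile acid synthesis, was at 189.7, 164 and 183 CPM in Plasmax-TE+Fe, against 307, 262 and 299 CPM in EMEM. No library of one medium overlapped with the other in these genes. ABCC3, an exporter of bile salts, was at 62.4, 54.5 and 81.7 CPM in Plasmax-TE+Fe, against 28.2, 32.8 and 35.9 CPM in EMEM and went the other way. On the log2 scale the differences were -2.65 ± 0.19 for SULT2A1, -1.54 ± 0.24 for HSD11B2, -0.69 ± 0.14 for CYP27A1 and 1.02 ± 0.18 for ABCC3. Their adjusted p by edgeR's test was 1.3e-08, 0.00032, 0.0023 and 0.001 in that order. CYP3A5 had -2.29 ± 0.46, and reads could be shared with its near-identical neighbours. Of 30 measured members, 2 rose and 10 fell (40% called), with a median of -0.66.

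Among 17 hepatocyte transcription factors, 6 fell and none rose (35.3% called), with a median of -0.55. NR0B2, the bile acid-induced repressor SHP, was at 94.6, 102 and 96.6 CPM in Plasmax-TE+Fe, against 209.9, 187 and 257 CPM in EMEM, without overlap, and had a log2 fold change of -1.16 ± 0.19 with adjusted p = 0.00045 by edgeR's test. NR0B2 and PPARA kept the call with each library left out, and the other 4 did not. HNF4A, a master factor of the hepatocyte programme, was among the 4, at 130.3, 103 and 122 CPM in Plasmax-TE+Fe, against 189, 158 and 187 CPM in EMEM. Its adjusted p by edgeR's test was 0.021 with all libraries, 0.06 and 0.07 without replicates 2 and 3 of Plasmax-TE+Fe, and 0.086 and 0.085 without replicates 1 and 3 of EMEM.

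Enzymes of amino acid breakdown fell in part. AGXT, which turns glyoxylate into glycine in liver peroxisomes, was at 2.58, 2.06 and 3.98 CPM in Plasmax-TE+Fe, against 52.0, 27.7 and 40.6 CPM in EMEM. MCCC1, a subunit of the carboxylase of leucine breakdown, was at 12.5, 10.8 and 12.4 CPM in Plasmax-TE+Fe, against 23.1, 24.7 and 24.6 CPM in EMEM. Both genes were separate between the media, with log2 fold changes of -3.76 ± 0.34 and -1.01 ± 0.22. ARG1, the arginase of the urea cycle, had 2 counts in the 3 Plasmax-TE+Fe libraries together and 53 in the EMEM libraries, a 27.6-fold lower level with an exact 95% interval of 7.28 to 234.0. By edgeR's test the adjusted p was 3.8e-07 for AGXT, 0.0059 for MCCC1 and 0.00021 for ARG1. Of 25 measured members, 7 fell and none rose (28% called), with a median of -0.43, and 4 kept the call with each library left out.

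Methionine and folate genes included single large changes. MAT2A, which makes S-adenosylmethionine outside the adult liver programme, was at 135, 309 and 89.1 CPM in Plasmax-TE+Fe, against 43.0, 23.0 and 35.9 CPM in EMEM, highest in replicate 2, with every Plasmax-TE+Fe library above every EMEM library. ALDH1L1, a cytosolic folate enzyme, averaged 3.08 ± 1.88 CPM in Plasmax-TE+Fe and 19.1 ± 1.85 CPM in EMEM (SD, n = 3 each). MTHFD1L, an enzyme of mitochondrial one-carbon supply, was at 93.3, 65.8 and 98.6 CPM in Plasmax-TE+Fe, against 43.0, 43.9 and 51.5 CPM in EMEM. The log2 fold changes were 2.40 ± 0.33 for MAT2A, -2.57 ± 0.36 for ALDH1L1 and 0.90 ± 0.18 for MTHFD1L, with adjusted p of 7.6e-05, 9.4e-05 and 0.0023 in that order by edgeR's test. GART, an enzyme of purine synthesis, had 1.56 ± 0.24 and adjusted p = 0.00028. The lists as wholes were small: 2 rose and 1 fell of 14 methionine genes (median 0.21), 1 rose and 2 fell of 14 serine and folate genes (median 0.09), and 3 rose of 25 nucleotide synthesis genes (median 0.17). The shares called were 21.4%, 21.4% and 12% in that order, against 9.65% of all genes. Of the methionine genes 3 rose and 3 fell under the batch term.

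Part of the targets of the hypoxia factor HIF fell. CA9, a carbonic anhydrase that is a standard HIF target, had 5 counts in Plasmax-TE+Fe and 64 in EMEM over the 3 libraries of each, a 13.3-fold lower level with an exact 95% interval of 5.43 to 42.5. NDRG1 was at 125, 97.2 and 154 CPM in Plasmax-TE+Fe, against 353, 534 and 248 CPM in EMEM. BNIP3, a mitophagy receptor, was at 104, 63.7 and 112 CPM in Plasmax-TE+Fe, against 182, 242 and 176 CPM in EMEM. EMEM replicate 2 was the highest library in NDRG1 and BNIP3, and neither gene overlapped. Fitted log2 fold changes were -1.60 ± 0.22 and -1.10 ± 0.20, with adjusted p = 9.4e-05 for NDRG1, 0.0013 for BNIP3 and 0.0012 for CA9 by edgeR's test. Of 33 measured targets, 16 fell and 1 rose (51.5% called), with a median of -0.72, and 9 to 14 fell with 1 library left out, 8 of them in each such fit. The one that rose did not. Of 15 glycolysis genes, which HIF also drives, 4 fell and none rose (26.7% called), with a median of -0.35, and 7 fell under the batch term. ALDOC, an aldolase, kept its call with each library left out, at -1.78.

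Genes of growth factor signalling, matrix and cell shape rose in part. CSTA (ENSG00000121552), cystatin A, was at 30.1, 21.6 and 29.9 CPM in Plasmax-TE+Fe, against 3.85, 2.98 and 2.83 CPM in EMEM, with a log2 fold change of 3.08 ± 0.30. TIMP1, an inhibitor of matrix proteases, was at 82.1, 70.4 and 124 CPM in Plasmax-TE+Fe, against 23.1, 29.8 and 18.9 CPM in EMEM, with 1.93 ± 0.24. AREG, a ligand of the EGF receptor, was at 283, 74.5 and 370.0 CPM in Plasmax-TE+Fe, against 27.0, 47.3 and 45.4 CPM in EMEM. The groups did not overlap in these 3 genes, but AREG in replicate 2 was well below replicates 1 and 3 and closer to the highest EMEM library than to either. The log2 fold change of AREG was 2.58 ± 0.43. The adjusted p by edgeR's quasi-likelihood test was 1.3e-06 for CSTA, 3.3e-05 for TIMP1 and 0.00055 for AREG, and 6.2e-07 for AREG without replicate 2. Of 24 EGF receptor ligands and ERK-responsive genes, 4 rose and none fell (16.7% called), with a median of 0.24. Without replicate 2, where 10.7% of all genes were called, 8 rose. Under the batch term, which called 15% of all genes, 7 rose and 2 fell. AREG alone kept its call with each library left out. The other 3 that rose lost the call in at least 1 such fit.

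Of 48 protease inhibitors, matrix and cytoskeletal genes, 9 rose and 3 fell (25% called), with a median of 0.18. Without replicate 2 of Plasmax-TE+Fe, where 10.7% of all genes were called, 14 rose and 3 fell. Under the batch term, which called 15% of all genes, 15 rose and 5 fell. ITGA1, an integrin subunit for collagen, had a log2 fold change of 1.06 ± 0.19, and TUBB6, a tubulin, 1.03 ± 0.19. TNS1, tensin, which links integrins to actin, was at 6.02, 11.3 and 10.5 CPM in Plasmax-TE+Fe, against 55.8, 81.8 and 26.9 CPM in EMEM, the lowest in the list at -2.58 ± 0.39. SOX4, a progenitor factor, was at 172, 153 and 213 CPM in Plasmax-TE+Fe, against 71.2, 98.4 and 72.3 CPM in EMEM and had 1.15 ± 0.18. The adjusted p by edgeR's test was 0.001 for ITGA1, 0.0014 for TUBB6, 0.0002 for TNS1 and 0.00029 for SOX4. Of 17 progenitor and biliary markers, 4 rose and 2 fell (35.3% called), with a median of 0.23, and SOX4 and AFP kept the call with each library left out. Among 14 glucocorticoid-responsive genes 1 rose and 5 fell (42.9% called). The gene that rose was TSC22D3 (2.37 ± 0.43, adjusted p = 0.0013), and SGK1, a kinase of salt transport, fell to 18.9, 13.9 and 27.9 CPM in Plasmax-TE+Fe, against 84.1, 106 and 114 CPM in EMEM (-2.33 ± 0.23, adjusted p = 1.3e-06).

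**Figure D5:**
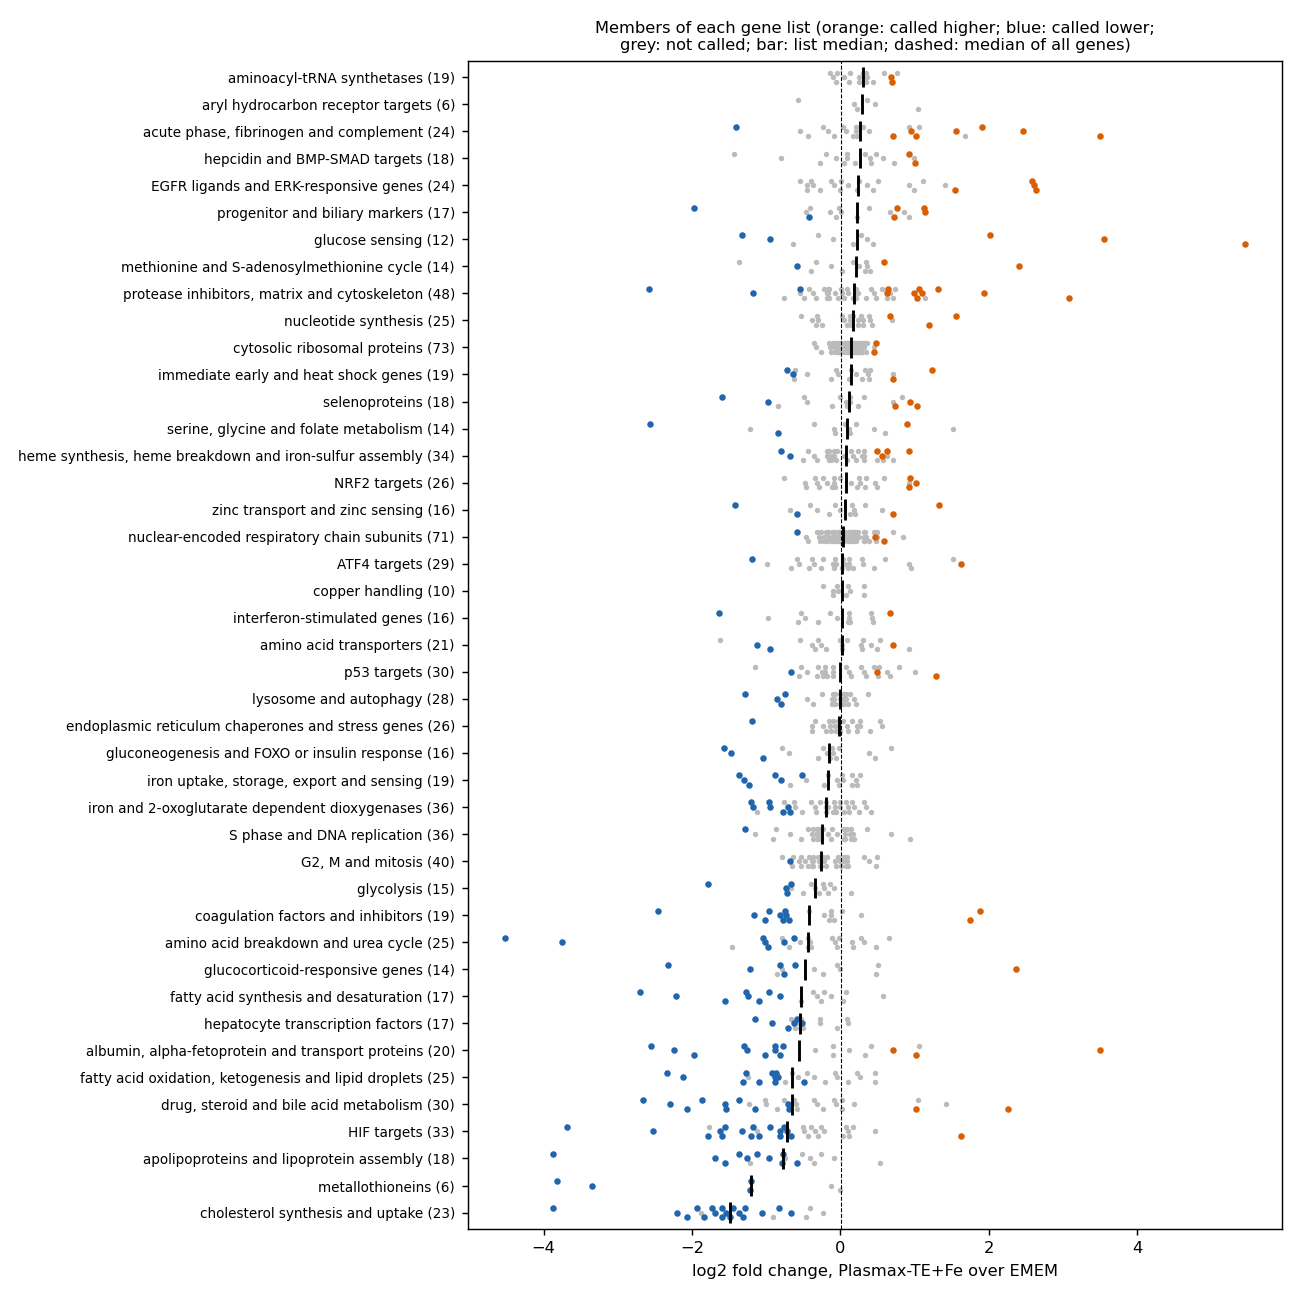
Log2 fold change of Plasmax-TE+Fe over EMEM for the tested members of the 43 gene lists with a member tested, 1 line a list and 1 point a member, with the list's median as a bar; orange members were called higher, blue ones lower. The medians of cholesterol synthesis (-1.49) and metallothioneins (-1.21) are lowest, and several lists of cell growth and housekeeping lie near 0.

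For several lists the share of calls was below that of all genes (9.65%). Of 36 genes of S phase and DNA replication only CDT1, a licensing factor, was called (-1.28), and of 40 mitosis genes 1 fell, a call that was not held with each library left out. The medians of the 2 lists were -0.25 and -0.26. Of 71 nuclear-encoded respiratory chain subunits 2 rose and 1 fell (median 0.04), and of 73 cytosolic ribosomal proteins 2 rose (median 0.15). Of 26 endoplasmic reticulum genes 1 fell (median -0.03). Under the batch term 2 S phase and 4 mitosis genes fell, 7 respiratory subunits rose and 2 fell, and 5 ribosomal proteins rose and 1 fell. That fit called 15% of all genes, 6.36% higher and 8.64% lower. Slightly higher shares, up to 14.3%, were called in the next lists. Of 30 p53 targets 2 rose and 1 fell (median -0.01), of 26 NRF2 targets 3 rose (median 0.07) and of 16 interferon-stimulated genes 1 rose and 1 fell (median 0.02). Under the batch term 5 p53 targets rose and 2 fell, 5 NRF2 targets rose and 2 fell, and 3 interferon-stimulated genes rose and 1 fell. Of 28 lysosome and autophagy genes 4 fell (median -0.01), and OPTN, an autophagy receptor, and NPC2, a lysosomal cholesterol carrier, kept the call with each library left out, at -1.29 ± 0.19 and -0.85 ± 0.14.

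The lists tied to amino acid supply moved with single libraries, replicate 2 of Plasmax-TE+Fe among them. With all libraries, 6.9% of the ATF4 targets and 10.5% of the aminoacyl-tRNA synthetases were called, against 9.65% of all genes. The shares were 21.4% for serine and folate genes and 14.3% for amino acid transporters. Of 29 ATF4 targets 1 rose and 1 fell with all libraries, and 6 rose and 1 fell without replicate 2. The fit without replicate 2 called 10.7% of all genes. With any 1 of the 6 libraries left out, 0 to 6 rose and 0 to 5 fell. Of 19 aminoacyl-tRNA synthetases 2 rose, 6 rose without replicate 2, and 0 to 6 rose with any 1 library left out. Of 14 serine and folate genes 1 rose and 2 fell, 4 rose and 3 fell without replicate 2, and 1 to 4 rose and 1 to 3 fell with any 1 library left out. Of 21 amino acid transporters 1 rose and 2 fell, 3 rose and 2 fell without replicate 2, and 0 to 3 rose and 1 to 3 fell with any 1 library left out. Which library was left out also decided single calls in these lists, as in NARS1, asparaginyl-tRNA synthetase, at 319, 169 and 327 CPM in Plasmax-TE+Fe, against 185, 158 and 168 CPM in EMEM. Its value in replicate 2 was inside the EMEM range and the other 2 libraries were above it. The adjusted p was 0.04 with all libraries, 0.00062 without replicate 2, 0.17 without replicate 1 or 3 of Plasmax-TE+Fe, and 0.081, 0.14 and 0.12 without EMEM replicates 1, 2 and 3, all by edgeR's test. Whether the state of this library bears on the other results was not tested beyond the values given without it. Under the batch term 3 ATF4 targets rose and 4 fell, 4 synthetases rose, 2 serine and folate genes rose and 3 fell, and 2 transporters rose and 4 fell. That fit called 15% of all genes. Of 16 gluconeogenic and insulin-responsive genes 3 fell and none rose (18.8% called; 4 and 1 under the batch term), of which KLF15 (-1.57 ± 0.35) kept its call in every fit that left out a library. Of 19 immediate early and heat shock genes 2 rose and 2 fell (21.1% called; 5 and 4 under the batch term), of which JUND (-0.72 ± 0.16) did so. None of 6 aryl hydrocarbon receptor targets was called with all libraries, and 2 rose with the library numbers as a batch term. CYP1A1, the best known of them, was at 14.2, 6.68 and 19.9 CPM in Plasmax-TE+Fe, against 5.13, 7.67 and 6.61 CPM in EMEM, at adjusted p = 0.073 with all libraries and 0.0084 without replicate 2.

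Direct tests in the same model asked where iron-restored Plasmax differed from complete Plasmax. They called 126 of 10459 genes (1.2%), 53 higher (0.507%) and 73 lower (0.698%); the count was 71 without Plasmax-TE+Fe replicate 1, 82 without replicate 2 (0.766%), and 372 with the library numbers as a batch term (3.56%). The Plasmax and Plasmax-TE libraries were not left out in turn. HAMP was at 85.2, 64.8 and 79.2 CPM in Plasmax-TE+Fe and 8.15, 6.01 and 6.98 CPM in Plasmax. MT1F was at 15.1, 10.3 and 8.46 CPM in Plasmax-TE+Fe and 51.4, 58.1 and 78.7 CPM in Plasmax. MT2A, which did not differ detectably from EMEM, was at 1897, 1078 and 2117 CPM in Plasmax-TE+Fe and 4606, 5772 and 5020 CPM in Plasmax. HAMP was thus higher in every iron-restored library, and both metallothioneins were lower in every one. The log2 fold changes of Plasmax-TE+Fe over Plasmax were 3.44 ± 0.31 for HAMP, -2.46 ± 0.26 for MT1F and -1.60 ± 0.24 for MT2A, with adjusted p of 5.3e-06, 2.3e-05 and 0.0012 in that order by edgeR's test. ALB was at 7880, 8053 and 7068 CPM in Plasmax-TE+Fe and 4155, 3885 and 3989 CPM in Plasmax, with no overlap. Its difference was 0.94 ± 0.11 on the log2 scale, with adjusted p = 7.6e-05. TXNIP was not called against Plasmax (-0.55 ± 0.18, adjusted p = 0.16), and neither was TFRC (-0.49 ± 0.23, 0.37).

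Of the 48 protease inhibitors, matrix and cytoskeletal genes, 3 were higher and 5 lower in iron-restored than in complete Plasmax, where 1.2% of all genes were called. The 3 higher ones were the collagen cross-linking enzyme LOX and the matrix proteins THBS1 and CCN2, with log2 fold changes over Plasmax of 2.52 ± 0.46, 1.30 ± 0.22 and 1.01 ± 0.22 and adjusted p of 0.0066, 0.004 and 0.024 in that order by edgeR's test. CYP1A1 was at 14.2, 6.68 and 19.9 CPM in Plasmax-TE+Fe and 96.0, 89.6 and 62.8 CPM in Plasmax, with no overlap. The log2 fold changes of Plasmax-TE+Fe over Plasmax were -2.59 ± 0.27 for CYP1A1, -1.22 ± 0.20 for CSTA, -0.93 ± 0.21 for TIMP1 and -1.05 ± 0.17 for SOX4. CSTA, TIMP1 and SOX4 were called higher in Plasmax-TE+Fe than in EMEM and lower than in Plasmax, so their level lay between those of the 2 media. In SULT2A1 the order was the reverse, with a log2 fold change of 1.36 ± 0.22 over Plasmax and -2.65 ± 0.19 over EMEM. The adjusted p against Plasmax by edgeR's test was 2.3e-05 for CYP1A1, 0.0028 for CSTA, 0.031 for TIMP1, 0.0027 for SOX4 and 0.0027 for SULT2A1. Of the cholesterol genes above, HMGCS1 had -0.22 ± 0.19 and SQLE 0.26 ± 0.25 against Plasmax, neither called. The comparisons with EMEM and with Plasmax share the Plasmax-TE+Fe libraries and are not independent.

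Against Plasmax-TE, which differs from Plasmax-TE+Fe by the iron alone as the labels describe them, the test called 27 genes (0.258%), 9 higher (0.0861%) and 18 lower (0.172%). The count was 0 without Plasmax-TE+Fe replicate 1 and 0 without replicate 3, with 736 and 549 genes at an unadjusted p under 0.05, and it was 229 without replicate 2 (2.14%). DESeq2 called 81 genes and limma-voom 20 with all libraries. These calls therefore depended on single libraries. FABP1 was at 218, 151 and 183 CPM in Plasmax-TE+Fe and 321, 339.9 and 401 CPM in Plasmax-TE. SULT2A1 was at 50.3, 45.2 and 35.9 CPM in Plasmax-TE+Fe and 81.2, 91.7 and 104 CPM in Plasmax-TE. CYP1A1 was at 14.2, 6.68 and 19.9 CPM in Plasmax-TE+Fe and 2.17, 3.15 and 1.09 CPM in Plasmax-TE. FABP1 and SULT2A1 were lower in every iron-restored library and CYP1A1 was higher in every one. The log2 fold changes of Plasmax-TE+Fe over Plasmax-TE were -1.07 ± 0.19 for SULT2A1, 2.60 ± 0.45 for CYP1A1, -2.12 ± 0.39 for AGXT and -0.94 ± 0.16 for FABP1. The adjusted p by edgeR's test with all libraries was 0.024 for SULT2A1, 0.024 for CYP1A1, 0.024 for AGXT and 0.024 for FABP1. HAMP was at 47.1, 95.3 and 99.5 CPM in Plasmax-TE, with a log2 fold change of -0.08 ± 0.23, and TFRC had -0.27 ± 0.24; neither was called.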

How the data were processed

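The authors deposited raw read counts per gene for 12 libraries of 3'-end RNA sequencing (QuantSeq); per the submitters' processing notes, the build was hg19/GRCh37 and the tools named are STAR 2.7.5b, featureCounts 1.6.3, cutadapt 1.16, FastQC 0.72 and limma 3.40.6. The gene annotation and the strand setting are not given in the sources used here.

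Of 10994 entries, 53 identifiers were repeated and 1 entry of each was kept, which left 10940 genes. edgeR 4.0.16 in R 4.3.3 fitted 1 quasi-likelihood model over the 12 libraries with TMM scaling after a filter on low counts (filterByExpr, minimum count 10, minimum total 15), and p-values were adjusted by the Benjamini-Hochberg method over all genes tested. CPM are TMM-scaled. The scripts were tested on simulated data. Named genes were TXNIP, CSTA, MT1F and the main iron genes, the 15 highest and 15 lowest called changes among genes that averaged 5 CPM or more and whose groups did not overlap, and up to 6 members of each list by p, with any member needed to account for a count. The members and lists were chosen with earlier results of these data known. Library numbers order the libraries in 3 runs of 4; deviations of libraries of the same run correlated at 0.127, 0.117 and 0.186 between the media. Alternatives were other scalings and filters, DESeq2 1.42.0, limma-voom 3.58.1, blocks and libraries left out; the fit without Plasmax-TE+Fe replicate 2 with a library-number block, and the list counts, were chosen after seeing the data. Some listed genes are counted but not reported here by name.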

Additional observations from a re-analysis of the deposited data

How the results depend on the processing

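No named call against EMEM reversed under the settings run; named calls against the other media were not followed across settings. Against EMEM, the library-number block gave 1569 calls, 665 of them higher, and leaving out 1 library gave 606 to 1145 calls, 197 to 483 higher and 392 to 662 lower. Leaving out the pair of libraries that stood apart gave 1503 calls, 673 higher and 830 lower, and leaving out replicate 2 of Plasmax-TE+Fe with the block gave 581 higher. Against Plasmax, the block gave 372 (170 higher, 202 lower), the libraries of the 2 media alone 77 (29 and 48), and leaving out 1 library 71 to 97 (32 to 41 higher, 39 to 62 lower); without the pair the count was 174 (92 and 82), and 99 were higher without replicate 2 with the block. Against Plasmax-TE, DESeq2 gave 81 (24 higher, 57 lower), limma-voom 4 higher, the block 152 (51 and 101), the 2 media alone 0 (0 and 0, with 776 genes at an unadjusted p under 0.05 by edgeR), leaving out 1 library 0 to 229 (0 to 105 higher, 0 to 124 lower), the fit without the pair 99 (42 and 57), and replicate 2 left out with the block 287 (148 and 139). The median log2 fold change over all genes was 0.063 with library size alone, 0.003 with limma-voom, 0.019 with the stricter filter, -0.002 to 0.030 with 1 library left out, -0.002 without the pair and 0.003 without replicate 2 with the block. The causes were not tested. With replicate numbers as a replicate block the count was 926 (351 higher, 575 lower); the numbers did not pair the libraries (r of -0.132, -0.056 and -0.081). At these depths a gene near 1 count per library cannot show a moderate difference.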

Other observations

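Several called genes lie outside the lists and were chosen after their values were seen. IER5L, an immediate early gene relative, had a log2 fold change of 2.18 ± 0.29, TGM2, tissue transglutaminase, 1.75 ± 0.24, IGFBP4, a binding protein of insulin-like growth factors, 1.61 ± 0.22, ODC1, which starts polyamine synthesis, 1.22 ± 0.21, HMGA1, a chromatin protein, 1.19 ± 0.18, S100P, a calcium-binding protein, 1.14 ± 0.18, and SOD2, the mitochondrial manganese superoxide dismutase, 0.91 ± 0.15. Among those that fell, SCN9A, a sodium channel, had -1.95 ± 0.21, SLC13A3, a dicarboxylate transporter, -1.78 ± 0.15, IDH2, mitochondrial isocitrate dehydrogenase, -1.54 ± 0.22, PGM1, phosphoglucomutase, -1.53 ± 0.18, and A2M, a broad protease inhibitor of plasma, -1.04 ± 0.13. These 12 genes were called against EMEM by edgeR's quasi-likelihood test and under every alternative run, DESeq2 and limma-voom included.
G0S2, an inhibitor of lipolysis, had 19 counts in the Plasmax-TE+Fe libraries and 0 in the EMEM libraries. Against a floor of 3 counts set for the EMEM group its level was 6.07-fold higher, a value that leaves out counting error. G0S2 too was chosen after its values were seen, and its call by edgeR's test was lost without replicate 3 of Plasmax-TE+Fe and without each of the EMEM libraries in turn.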
